A study of Mus musculus with 6 samples.

Results

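Tropomodulins (Tmod1 to Tmod4) and tropomyosins (Tpm1 to Tpm4) are the actin filament proteins described here, in RNA sequencing of the mouse cochlear modiolus, the central bone around which the cochlea winds and in which the spiral ganglion lies. The members were selected as the listed symbols of both families that have a row in the count table, and the choice was made on measured values of these libraries, with the difference of Tmod2 between the groups already known. All 8 genes had a row, of 33676 genes in the table. They held 47 of its 65535 transcripts, 14 from the tropomodulins and 33 from the tropomyosins, whereas the GENCODE M21 annotation has 71 transcripts of these genes; the others were not analysed here.

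The study followed degeneration of spiral ganglion neurons (SGN), the primary auditory neurons, after loss of the hair cells. All 6 libraries came from wild type C57BL/6 mice, described in the study's methods as males of 8 weeks. The 3 degenerated libraries came from mice given kanamycin at 1 g/kg under the skin and, 30 min later, furosemide at 0.4 g/kg into the peritoneum, a combination of an ototoxic antibiotic and a loop diuretic. The 3 control libraries came from mice given saline, and the time point of the study's transcriptome was day 30 after injection. The model is one of secondary degeneration: the drugs destroy hair cells, and neurons are lost afterwards. The labels do not say whether a library is 1 animal or a pool.

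Library totals ranged from 12480876 to 15549319 counts. The labels name the cell type as spiral ganglion neuron, and all 13 hand-listed markers of that neuron were listed, with a summed level of 9320 to 12660 CPM (counts scaled to a common library size) in the controls and 5959 to 8453 CPM in the degenerated libraries. Markers of Schwann cells, fibroblasts, macrophages, hair cells and red cells were also present, so these are libraries of mixed tissue. In such tissue fewer cells of a type and less RNA per cell cannot be told apart. In control replicate 3 some genes of fast skeletal muscle, among them Myh1, Myh4, Ckm and Atp2a1, stood far above the other libraries, which touches Tmod4 below.

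Actin filaments have a fast growing barbed end and a slow pointed end. Tropomodulins cap the pointed end and bind it most tightly where tropomyosin, a rod of paired helices, lies along the filament. Leiomodins are relatives of the tropomodulins that start filaments in muscle. Tmod1 is known from striated muscle and the red cell membrane, Tmod2 from neurons, Tmod3 from most cell types and Tmod4 from skeletal muscle. Tropomyosin genes give long forms from an upstream promoter and short forms from an internal promoter, and alternative last exons add further forms.

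The result on Tmod2 turns on 1 listed transcript, Tmod2-201 (ENSMUST00000064433), and on how it differs from Tmod2-202, an annotated transcript of the same gene that was not analysed here. Both carry the same coding sequence of 1053 bases. The exons of Tmod2-201 cover 9884 bases, of which 9862 (99.8%) also belong to Tmod2-202, and 8 of its 9 splice junctions are shared. Tmod2-201 starts 22 bases further upstream, and its second exon begins 6 bases later. The junction of exon 1, which ends at chr9:75611024, with exon 2, which begins at chr9:75597396 in Tmod2-201 and at chr9:75597402 in Tmod2-202 (GRCm38, minus strand), is printed here in both forms because it is the only splice junction that separates them. It lies in the 5′ untranslated part, 12 bases of each exon are shown, and capitals mark the 6 bases found only in Tmod2-202.
Tmod2-201: gcacaagcaaagtgtgaagcctca
Tmod2-202: gcacaagcaaagTGGTAGtgtgaagcctca

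The paralogs differ enough to be told apart in sequence. Coding sequences of the 4 tropomodulins were 61.9% to 70.9% identical in the aligned bases, the closest pair being Tmod2 and Tmod3. The longest run of bases in common to Tmod2 and Tmod3 was 13, and the longest for any tropomodulin pair was 23, in Tmod1 and Tmod2. The first 60 coding bases are printed to show this, with capitals at positions that differ from Tmod2 when the bases are counted from the start codon without gaps. Tmod3 differed from Tmod2 at 19 of these 60 positions, Tmod4 at 36 and Tmod1 at 39.
Tmod1: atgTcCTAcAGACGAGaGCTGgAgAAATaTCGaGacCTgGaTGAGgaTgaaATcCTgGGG
Tmod2: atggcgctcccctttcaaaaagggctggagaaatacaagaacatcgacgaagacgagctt
Tmod3: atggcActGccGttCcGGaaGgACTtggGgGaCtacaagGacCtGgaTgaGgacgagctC
Tmod4: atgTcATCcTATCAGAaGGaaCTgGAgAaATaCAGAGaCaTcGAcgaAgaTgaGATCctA

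Tropomyosin coding sequences were closer to each other, at 74.5% to 77.8% identity. Their longest common runs were 35 bases for Tpm1 and Tpm2 and 32 bases for Tpm3 and Tpm4, so short reads inside such a run cannot be assigned to 1 gene by sequence.

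Gene levels below are CPM of the gene sum, that is the counts of all listed transcripts of a gene added up and scaled with TMM factors. Log2 fold changes are degenerated against control from the edgeR fit over all genes, given with their standard error (SE) as a description, since the members were chosen on this contrast. A gene met the criteria, which the study states for another comparison of its own, when its unadjusted p was under 0.01 and its log2 fold change was beyond 0.2 in size.

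**Figure D1:**
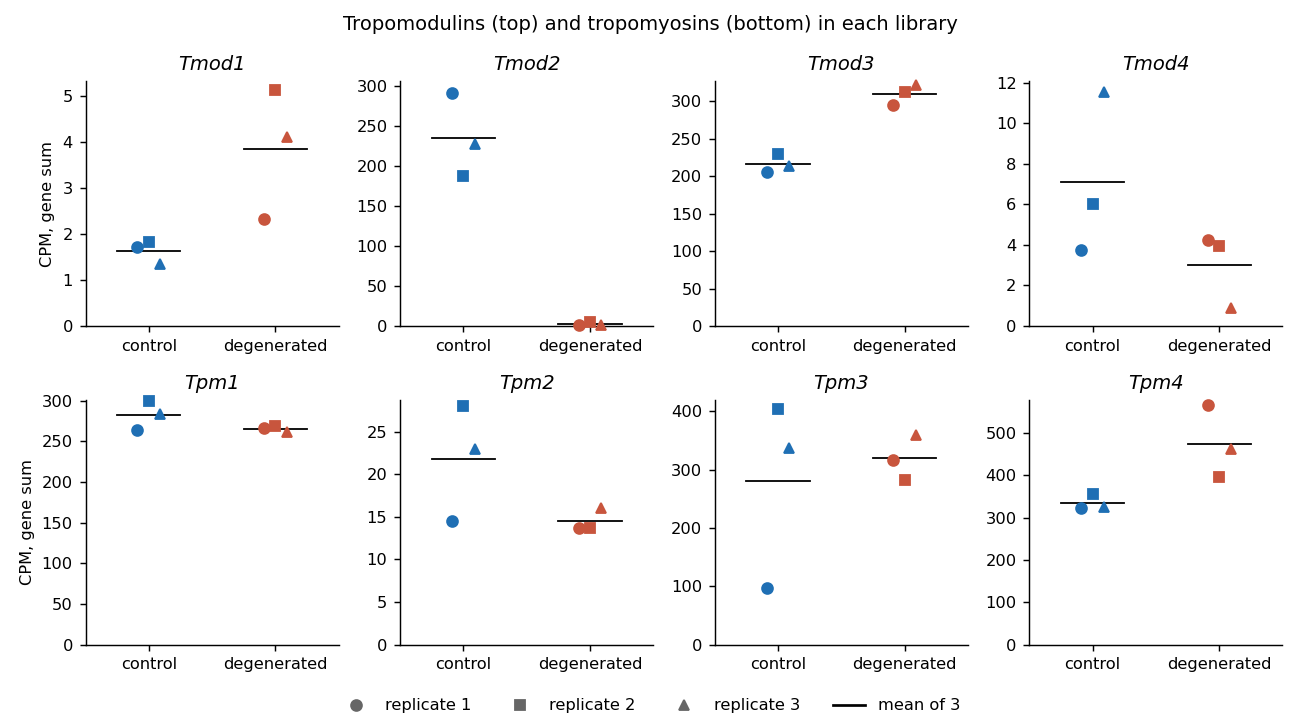
CPM of each member (vertical axis, from 0) in the 3 control and the 3 degenerated libraries, 1 point a library with the replicate number as its shape and the mean as a line. Tmod2 lies at 187 to 292 CPM in the controls and at 1.74 to 5.49 CPM in the degenerated libraries, Tmod3 and Tpm4 lie higher in every degenerated library, and Tpm3 is low in control replicate 1 alone.

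Of the 8 members, Tmod3 met the criteria as higher and Tmod2 as lower, where the background over the 14118 genes tested was 2.01% called higher and 0.715% called lower. The 3 degenerated libraries lay above all controls for Tmod1, Tmod3 and Tpm4, against 10.3% of all genes tested, and below all controls for Tmod2, against 7.37%. The groups overlapped for the other 4 members. The median log2 fold change of the 8 members was 0.05, beside -0.0034 over all genes tested, with 4 positive and 4 negative values. Because the choice of members used this contrast, nothing is read from these counts. At a Benjamini-Hochberg adjusted p under 0.05, the quasi-likelihood test of edgeR called 0 genes, a background of 0%, with 1367 genes at an unadjusted p under 0.05. The exact test of edgeR called 115 genes and DESeq2 called 382 genes at that adjusted threshold, whereas limma-voom called 0.

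Tmod2 (ENSMUSG00000032186, chr9:75565621-75611325, minus strand), the neuronal pointed end cap, was the member with the widest gap between the groups. Its level was 292, 187 and 228 CPM in control replicates 1, 2 and 3, and 1.78, 5.49 and 1.74 CPM in degenerated replicates 1, 2 and 3. Every degenerated library was below every control. The log2 fold change was -6.29 (SE 0.58), from 10637 counts over the controls and 126 over the degenerated libraries.

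The difference in Tmod2 lay in a single transcript. Tmod2-201 had 4389, 2649 and 3562 counts in the controls, and 0, 1 and 0 counts in the degenerated libraries. It held 99.5% to 100% of the listed Tmod2 counts in the controls and at most 1.28% in the degenerated libraries. The ratio of 10600 to 1 counts, after scaling for library size, was 10090, with a 95% exact binomial interval of 1810 to 398500 that covers counting error only. The fitted log2 fold change of -12.85 (SE 0.74) depends on the prior count of the fit.

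The other listed Tmod2 transcripts did not follow it. Tmod2-206, which has the same coding sequence and 8 of the 9 junctions but a short last exon, had 18, 0 and 0 counts in the controls and 4, 55 and 15 in the degenerated libraries. Tmod2-208, also with that coding sequence, had 1, 0 and 13 counts against 22, 18 and 3. Both groups overlapped for each of them, as they did for Tmod2-204, with 5, 0 and 0 against 0, 4 and 4 counts. All 3 stayed at 55 counts or fewer. Most of the length of Tmod2-201 is a last exon of 8500 bases, of which Tmod2-206 and Tmod2-208 hold only the beginning and Tmod2-204 nothing.

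Reads of Tmod2-201 match Tmod2-202 as well, except at the junction printed above and at the outermost bases. With the listed transcripts, less Tmod2 RNA and an assignment of its reads to Tmod2-202 cannot be told apart.

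**Figure D2:**
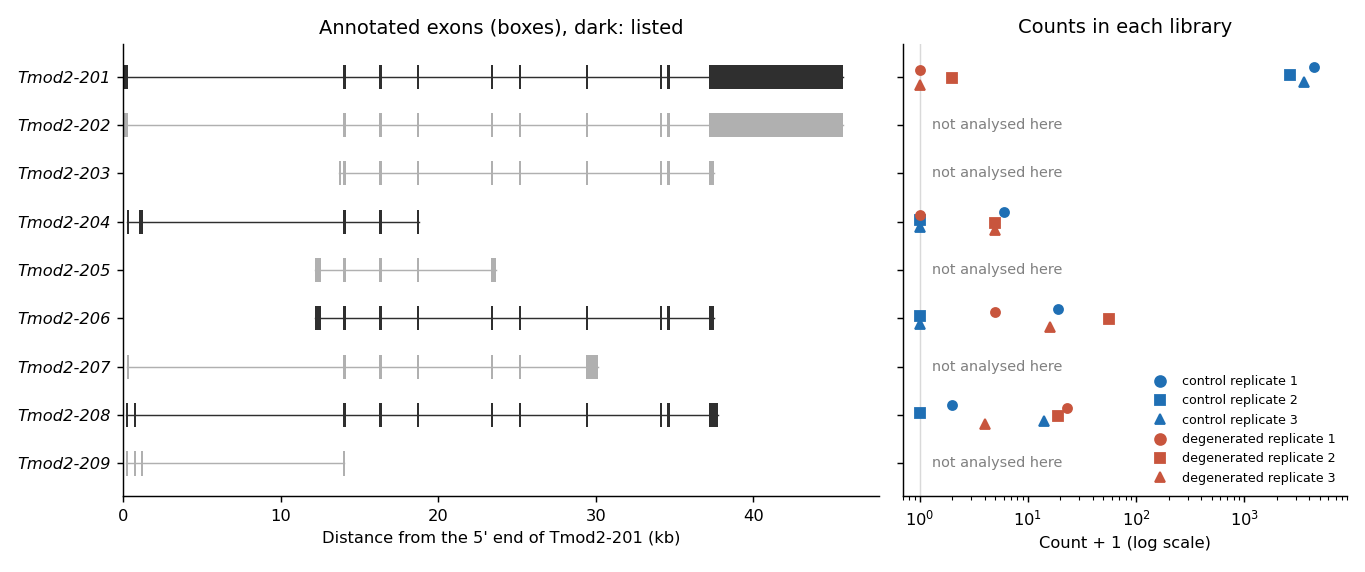
Left, annotated exons of the 9 Tmod2 transcripts as boxes along the distance from the 5′ end of Tmod2-201 in kb, dark for the 4 listed transcripts and grey for those not analysed here. Right, the count plus 1 on a log scale in each library: Tmod2-201 sits at 2649 to 4389 counts in the controls and at 0 or 1 count in the degenerated libraries, while Tmod2-204, Tmod2-206 and Tmod2-208 stay between 0 and 55 counts in both groups.

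Such all-or-none transcripts occurred elsewhere in the table. Tmod2-201 was 1 of 16 transcripts with at most 3 counts over the degenerated libraries, of 6905 that had 1000 or more over the controls. In the other direction the number was 31 of 6585. Within the controls, 1174 of the 13871 transcripts with 100 or more counts in some control library had at most 1 count in another control library, and within the degenerated libraries the number was 992 of 13716. Absence from single libraries therefore also occurred between replicates of a group. For Tmod2-201 the split followed the groups in all 6 libraries. That difference of Tmod2 was known when the members were chosen, so nothing is read from it.

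Levels of some cell type markers moved beside Tmod2. Over all genes tested, 2.01% were called higher and 0.715% lower, the shares to set beside the calls in the marker lists. The summed level of the 13 neuron markers was below all controls in every degenerated library, at 7165, 8453 and 5959 CPM against 12660, 9320 and 9647 CPM, and none of the 12 tested was called in either direction. Most of that sum came from Nefl, Nefm, Nefh and Snap25, each below all controls in every degenerated library. Tubb3 and Uchl1 were near level, with log2 fold changes of -0.04 (SE 0.13) and -0.07 (SE 0.11). Of the 12 tested, 9 had negative values and 3, Gata3, Map2 and Prph, positive ones. All 10 hair cell markers were listed, and their sum was 743 to 1068 CPM in the controls and 539 to 639 CPM in the degenerated libraries. Ocm and Slc26a5, which encode oncomodulin and the motor protein prestin of outer hair cells, were called lower in that list, with log2 fold changes of -5.83 (SE 0.61) and -5.11 (SE 0.60). Ocm held 140 to 173 CPM of the sum in the controls. Of the 9 tested hair cell markers, 7 had negative values and 2, Myo7a and Espn, positive ones, at 0.15 (SE 0.42) and 0.20 (SE 0.36). Otof, Pou4f3, Myo6 and Tmc1 overlapped between the groups and were not called. The part of neurons or hair cells in the difference of Tmod2 was not tested.

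Among all genes tested, the ones whose profile over the 6 libraries was nearest to that of Tmod2 were Ocm, Kxd1 and Slc26a5. Likeness was the root mean square difference of log2(CPM + 1) values centred on their mean, which was 0.56 for Ocm, 1.38 for Kxd1 and 1.46 for Slc26a5. Ocm had 151, 140 and 173 CPM in the controls and 3.90, 3.38 and 0.789 CPM in the degenerated libraries. Genes nearest to a member were picked over these same 6 libraries, so a shared pattern follows from the choice and nothing is read from it. Kxd1 had 37.9, 22.9 and 13.9 CPM against 0.889, 1.06 and 1.58 CPM. It was listed by 2 of its 9 annotated transcripts, of which Kxd1-203 was among the same 16 all-or-none transcripts as Tmod2-201.

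Tmod3 (ENSMUSG00000058587, chr9:75497707-75559657, minus strand), the broadly expressed cap, is the neighbour of Tmod2 on the same strand, and their annotated spans do not overlap. Its level was 205, 230 and 214 CPM in the controls and 294, 313 and 321 CPM in the degenerated libraries. All degenerated values lay above all controls, with little spread within either group. The log2 fold change was 0.52 (SE 0.10), a 1.43-fold higher level. Nearly all of it was Tmod3-201, which held 97.0% to 98.2% of the listed counts in every library. Tmod3-201 had 3042, 3151 and 3290 counts in the controls and 4225, 4306 and 3944 in the degenerated libraries, with a log2 fold change of 0.47 (SE 0.09). Of the 3667 bases of Tmod3-201, 2722 belong to no other annotated Tmod3 transcript, as do 6 of its 9 junctions. The annotated Tmod3 transcripts not analysed here cover 13.1% of its bases.

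The non-coding Tmod3-203 had 18, 23 and 19 counts against 43, 28 and 31, also higher in every degenerated library. Tmod3-204, which retains an intron, overlapped between the groups at 36, 67 and 44 against 35, 100 and 89 counts. Tmod3-202 had at most 5 counts in any library.

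Tmod1 (ENSMUSG00000028328, chr4:46038935-46116032, plus strand), the cap known from red cells and striated muscle, was low throughout. Its level was 1.72, 1.84 and 1.34 CPM in the controls and 2.33, 5.14 and 4.10 CPM in the degenerated libraries, a log2 fold change of 1.24 (SE 0.41) without overlap. Both listed transcripts, Tmod1-202 and Tmod1-203, are non-coding, and neither of the 2 annotated coding transcripts was analysed here. Tmod1-202 shares 63.2% of its bases and 5 of its 7 junctions with the coding Tmod1-201. With the listed transcripts, non-coding and coding RNA of Tmod1 therefore cannot be told apart. Tmod1-202 had 20, 21 and 14 counts against 23, 63 and 39, and Tmod1-203 had 6, 5 and 7 against 11, 10 and 13. Of the 9 red cell markers 6 were listed. Their sum was 6400 to 41410 CPM in the controls and 3479 to 16730 CPM in the degenerated libraries, with overlap. The part of red cells in the level of Tmod1 was not tested.

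Tmod4 (ENSMUSG00000005628, chr3:95124476-95129209, plus strand), the cap of skeletal muscle, was also low. Its level was 3.77, 6.01 and 11.6 CPM in the controls and 4.24, 3.94 and 0.868 CPM in the degenerated libraries. The groups overlapped, and the log2 fold change of -1.23 (SE 0.71) rested on the extremes, control replicate 3 and degenerated replicate 3. Without control replicate 3 the log2 fold change was -0.71, and without degenerated replicate 3 it was -0.80.

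The transcripts of Tmod4 differed in where they were absent. The coding Tmod4-202 had 0, 53 and 145 counts in the controls and 56, 45 and 0 in the degenerated libraries, so it was missing from 1 library of each group. Like Tmod2-201 it has a near twin that was not analysed here: Tmod4-201 shares 98.2% of its bases, 8 of its 9 junctions and its coding sequence of 1035 bases. Tmod4-204 had 35, 26 and 16 counts against 1, 8 and 0, below all controls, with a log2 fold change of -3.02 (SE 1.11). Tmod4-206 had 22, 6 and 19 counts against 5, 3 and 11, with overlap.

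Fast skeletal muscle markers were examined beside Tmod4. Of the 14 markers 11 were listed, and Myh2 was at 0 in every library. Their summed level was 760 to 1311 CPM in the controls and 341 to 541 CPM in the degenerated libraries, most of it from Pvalb, a calcium buffer that neurons also express. Without Pvalb, a split made after the values were seen, the sum was 55.2, 37.8 and 499 CPM in the controls and 29.1, 29.0 and 17.9 CPM in the degenerated libraries. Control replicate 3 stood alone, as in the fast myosin Myh4, at 0, 0 and 103 CPM in the controls and 0.410, 0 and 0.474 CPM in the degenerated libraries. Both the gene sum of Tmod4 and these markers were highest in control replicate 3 and lowest in degenerated replicate 3. Of the Tmod4 transcripts with at least 10 counts, Tmod4-202 alone was highest in control replicate 3, at 0, 53 and 145 counts. Tmod4-204, at 35, 26 and 16 counts, and Tmod4-206, at 22, 6 and 19 counts, were highest in control replicate 1. The part of muscle tissue in the level of Tmod4 was not tested.

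**Figure D3:**
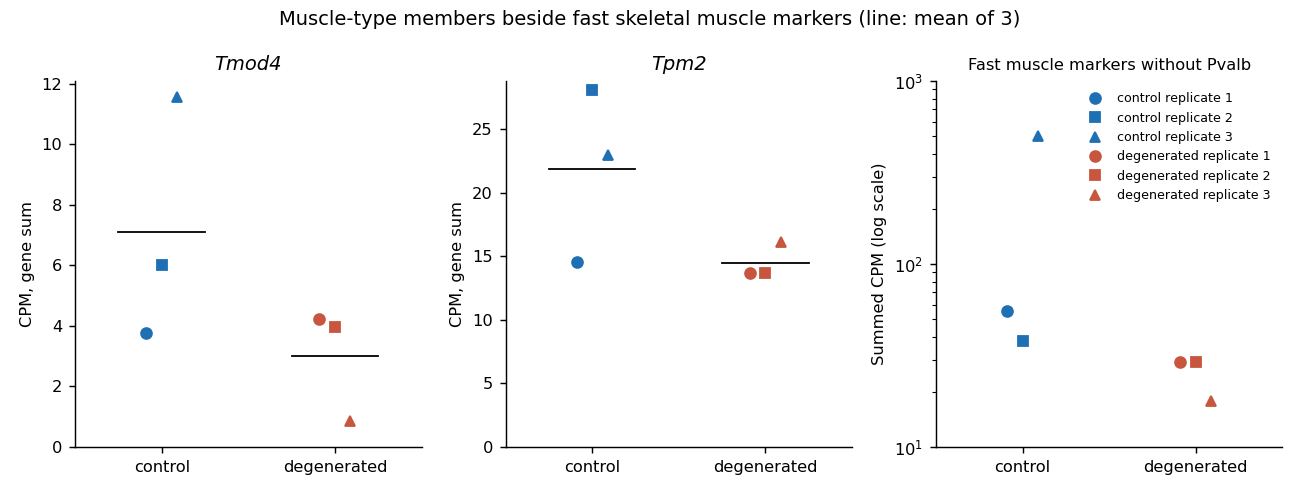
Level of Tmod4 and of Tpm2 (CPM, axes from 0, line at the mean) and the summed CPM of the fast skeletal muscle markers without Pvalb (log axis) in each of the 6 libraries. Control replicate 3, a blue triangle, is highest for Tmod4 at 11.6 CPM and for the markers at 499 CPM. Control replicate 2, a blue square, is highest for the gene sum of Tpm2 at 28.1 CPM.

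Genes nearest to the profile of Tmod4 were Gm15545, Ehbp1l1 and Zbtb48, with root mean square differences of 0.20, 0.23 and 0.27. Ehbp1l1 had 13.9, 17.1 and 42.2 CPM in the controls and 13.0, 10.6 and 5.76 CPM in the degenerated libraries.

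Tropomyosin forms of Tpm1 (ENSMUSG00000032366, chr9:67022590-67049406, minus strand) begin at an upstream or an internal exon. The coding parts of both first exons are printed because the results are split by them, from Tpm1-216 for the upstream exon at chr9:67049019-67049406 and from Tpm1-209 for the internal exon at chr9:67043578-67043962, with the start codon in capitals.
Tpm1-216: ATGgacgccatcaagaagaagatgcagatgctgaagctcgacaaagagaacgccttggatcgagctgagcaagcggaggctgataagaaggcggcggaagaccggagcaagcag
Tpm1-209: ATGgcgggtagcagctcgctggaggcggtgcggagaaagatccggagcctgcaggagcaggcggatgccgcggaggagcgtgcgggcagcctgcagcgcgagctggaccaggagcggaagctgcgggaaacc

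Those exons contribute 114 and 132 coding bases. The 8 listed coding transcripts with the upstream start have 843 to 861 coding bases, and the 5 with the internal start have 735 to 753. The forms also differ at their ends. The coding part of the last exon is printed for the transcripts that stand for the main ends, Tpm1-216 with the exon at chr9:67022590-67023441, Tpm1-209 with chr9:67022593-67024565 and Tpm1-201 with chr9:67028848-67029742, with the stop codon in capitals.
Tpm1-216 end: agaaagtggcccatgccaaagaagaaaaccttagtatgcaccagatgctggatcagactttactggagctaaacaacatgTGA
Tpm1-209 end: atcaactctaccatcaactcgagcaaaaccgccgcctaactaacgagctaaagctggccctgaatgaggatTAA
Tpm1-201 end: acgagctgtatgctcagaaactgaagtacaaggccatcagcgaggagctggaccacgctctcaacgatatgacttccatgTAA

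As a gene sum Tpm1 had almost equal levels in both groups. It was 264, 299.5 and 284 CPM in the controls and 266, 269 and 261 CPM in the degenerated libraries, a log2 fold change of -0.09 (SE 0.09) with overlap. Of its 21 annotated transcripts 17 were listed and 14 were tested, and none of those met the criteria. Of those 14 transcripts, 2 lay above all controls in every degenerated library and 4 lay below, where 9.13% and 7.24% of all transcripts tested did so, and nothing is read from these counts.

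Coding transcripts with the upstream start, the long forms, summed to 113, 134 and 132 CPM in the controls and 97.7, 71.3 and 114 CPM in the degenerated libraries, a log2 ratio of means of -0.42 with an overlap at 1 pair of libraries. The grouping by start was made after the values were seen. Most of that difference was in Tpm1-216, which had 869, 924 and 1032 counts in the controls and 575, 473 and 671 in the degenerated libraries, all below the controls, with a log2 fold change of -0.63 (SE 0.23). Tpm1-215, which has the same last exon, had 160, 180 and 214 counts against 100, 97 and 138, and its log2 fold change was also -0.63 (SE 0.34). The much rarer Tpm1-207 had 20, 23 and 31 counts against 11, 9 and 12 and a log2 fold change of -1.11 (SE 0.37). Of the 1898 bases of Tpm1-216, 131 belong to no other annotated Tpm1 transcript, and 0 of its 8 junctions are its own. Tpm1 transcripts not analysed here cover 89.8% of its bases. Less RNA of this form and an assignment of its reads to other Tpm1 transcripts cannot be told apart.

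The exception among the ends was that of Tpm1-201. This upstream form, which ends at the exon from chr9:67028848, had 292, 213 and 237 counts against 326, 276 and 268, with a log2 fold change of 0.30 (SE 0.25) and an overlap. The 2 upstream forms that end in the exon of Tpm1-207 had a log2 ratio of means of -0.37, and the single one with the end of Tpm1-209, at 3 counts or fewer in any library, one of -0.69. The 4 upstream forms that end in the exon of Tpm1-216 summed to 87.9, 115 and 111 CPM against 71.6, 48.8 and 88.8 CPM, a log2 ratio of -0.59 with an overlap. Of these Tpm1-213 was uneven, at 213, 388 and 383 counts in the controls and 328, 83 and 269 in the degenerated libraries.

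The short forms had near equal levels in both groups. Their sum was 151, 162.5 and 144.5 CPM in the controls and 158, 150.3 and 134 CPM in the degenerated libraries, a log2 ratio of -0.05. Tpm1-209 was the main short form, with 1623, 1806 and 1618 counts against 1605, 1577 and 1124, a log2 fold change of -0.17 (SE 0.16) and an overlap in CPM. Tpm1-208, the other short form with that last exon, had 541, 402 and 564 counts against 676, 557 and 532 and overlapped in counts, but its CPM were higher in every degenerated library, with a log2 fold change of 0.30 (SE 0.20).

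The share of the upstream start in the coding CPM of Tpm1 was 45.3% ± 2.54 (SD, n = 3) in the controls and 38.8% ± 6.94 (SD, n = 3) in the degenerated libraries, and degenerated replicate 3 overlapped with the controls. Without degenerated replicate 2 the log2 ratio of the long forms was -0.26, and without degenerated replicate 3 it was -0.58.

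**Figure D4:**
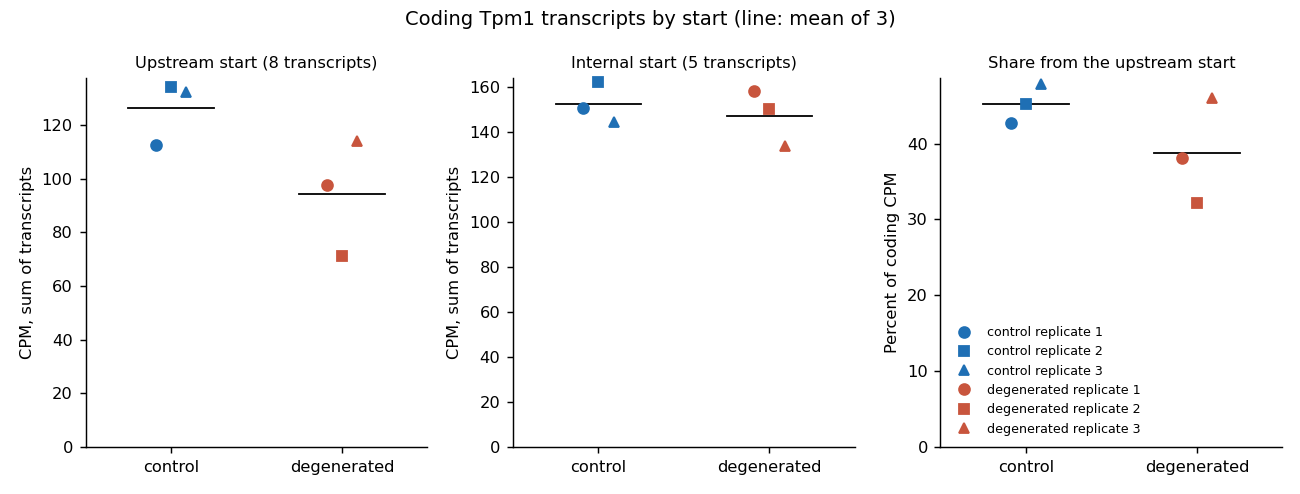
Coding Tpm1 transcripts by start: summed CPM of the 8 with the upstream start (left), of the 5 with the internal start (middle), and the percent of their CPM that comes from the upstream start (right), with 1 point a library, axes from 0 and a line at the mean. The upstream forms average 126 CPM in the controls and 94.3 CPM in the degenerated libraries, and the internal forms 153 and 147.5 CPM.

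Non-coding and decay forms of Tpm1 were small. Tpm1-221, a processed transcript, had 92, 79 and 87 counts against 122, 153 and 122, above all controls, with a log2 fold change of 0.69 (SE 0.29). Tpm1-219, another, had 16, 14 and 18 against 11, 13 and 11, with a log2 fold change of -0.38 (SE 0.34). Tpm1-220, annotated for nonsense-mediated decay, was at 0 in 5 libraries and had 450 counts in degenerated replicate 2 alone, and Tpm1-218 of the same class had 28, 40 and 65 counts against 5, 3 and 35. When these classes were included, the log2 ratio of the internal start moved from -0.05 to 0.08. It was 0.05 with Tpm1-220 alone added to the coding forms and -0.01 with Tpm1-221 alone, a split made after the values were seen. The remaining Tpm1 transcripts, Tpm1-203, Tpm1-204, Tpm1-206, Tpm1-210, Tpm1-211 and Tpm1-214, had between 1 and 95 counts in any library and overlapped between the groups.

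Tpm2 (ENSMUSG00000028464, chr4:43514711-43523765, minus strand), a tropomyosin of muscle that other cells also make, had 14.6, 28.1 and 23.0 CPM in the controls and 13.7, 13.7 and 16.1 CPM in the degenerated libraries. The groups overlapped through control replicate 1, and the log2 fold change was -0.59 (SE 0.30). Tpm2-203, its main form, had 179, 251 and 315 counts against 153, 133 and 196, with a log2 fold change of -0.53 (SE 0.36). Tpm2-201 was uneven within the groups, at 28, 139 and 36 counts against 47, 61 and 3. Tpm2-206 had 13, 7 and 5 counts against 0, 0 and 5, and Tpm2-204 had 4 counts in all.

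The gene sum of Tpm2, unlike that of Tmod4, was not highest in control replicate 3, the library with the muscle genes. Its main form Tpm2-203 was, however, highest there, at 12.2, 18.2 and 20.4 CPM in control replicates 1, 2 and 3. Of the 9 markers of smooth muscle and pericytes 6 were listed, with Cnn1 at 0 in every library, and their sum was 143 to 174 CPM in the controls and 77.4 to 216 CPM in the degenerated libraries. The genes nearest to the profile of Tpm2 were Dbp, Arrdc1 and Rbfa, at root mean square differences of 0.05, 0.08 and 0.08. Dbp, a transcription factor with a daily rhythm, had 135, 259 and 204 CPM in the controls and 140.3, 129.8 and 154 CPM in the degenerated libraries.

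Tpm3 (ENSMUSG00000027940, chr3:90072649-90100902, plus strand), expressed in slow muscle and as short forms in most cells, was set apart by 1 library. Its level was 97.1, 405 and 338 CPM in the controls and 317, 283 and 360 CPM in the degenerated libraries. The log2 fold change was 0.19 (SE 0.50), and without control replicate 1 it was -0.23, of the opposite sign. Both main transcripts were low in that library: Tpm3-201 had 893, 4605 and 4150 counts in the controls and 3539, 3193 and 3784 in the degenerated libraries, and Tpm3-202 had 139, 871 and 869 against 815, 452 and 547. Tpm3-203 went the other way, with 303, 117 and 129 counts in the controls and 132, 233 and 108 in the degenerated libraries. Tpm3-215, a minor form, was level across all libraries at 53, 55 and 55 against 59, 52 and 49 counts.

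Nearly all Tpm3 reads were assigned to short forms. Its coding transcripts with the upstream start held 0.743% ± 0.228 (SD, n = 3) of the coding CPM in the controls and 0.565% ± 0.447 (SD, n = 3) in the degenerated libraries. The other 7 listed transcripts of Tpm3 were Tpm3-204, Tpm3-205, Tpm3-208, Tpm3-209, Tpm3-212, Tpm3-213 and Tpm3-214, each with at most 45 counts in any library and with overlap between the groups.

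Tpm4 (ENSMUSG00000031799, chr8:72134975-72153142, plus strand), a tropomyosin of non-muscle cells, was listed by its single annotated coding transcript, Tpm4-201. Its level was 323, 357 and 325 CPM in the controls and 567, 396 and 462 CPM in the degenerated libraries, all of them above the controls. The log2 fold change was 0.50 (SE 0.15), a 1.42-fold higher level, which did not meet the criteria. Degenerated replicate 1 was the highest, and without it the log2 fold change was 0.35. The summed level of macrophage markers was also above the controls in every degenerated library: 6 of 9 were listed, at 417 to 475 CPM in the controls and 536 to 714 CPM in the degenerated libraries. Most of that sum came from the complement genes C1qb and C1qc, which were called higher, as were 2.01% of all genes tested. Their log2 fold changes were 0.69 (SE 0.14) and 0.63 (SE 0.15). The other 4 markers overlapped between the groups: Mrc1 and Cx3cr1 had log2 fold changes of 0.19 (SE 0.21) and 1.85 (SE 1.67), Cd68 had -1.54 (SE 1.11), and Aif1, too low to be tested, had 15.1, 0.0708 and 16.2 CPM in the controls against at most 0.137 CPM. Their part in the level of Tpm4 was not tested.

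Profiles nearest to that of Tpm4 belonged to genes of low level, Lxn, Cyb561 and Mroh6, with root mean square differences of 0.06, 0.06 and 0.09. Cyb561, an electron carrier of secretory vesicle membranes, had 2.58, 3.04 and 2.94 CPM in the controls and 5.06, 3.52 and 4.58 CPM in the degenerated libraries.

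Over single transcripts, 35 of the 47 members' transcripts were tested and 44 had at least 10 counts. Tmod3-201 met the criteria as higher and Tmod2-201 as lower, where 1.14% of the 26065 transcripts tested were called higher and 0.652% lower. Tmod3-201 no longer met them with the edgeR exact test, with a replicate block or without degenerated replicate 3, at log2 fold changes of 0.47, 0.47 and 0.43. Groups did not overlap for 7 members' transcripts in the upward and 6 in the downward direction, against 9.13% and 7.24% of all transcripts tested. At an adjusted p under 0.05 edgeR called 4 transcripts of the whole table, or 0.0153%.

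Levels of the members were then compared per length, as TPM, counts corrected for transcript length and scaled to a common total, over the listed transcripts. In the controls the order was Tpm4 at 287 ± 11.2 TPM (SD, n = 3), Tpm1 at 285 ± 9.41, Tpm3 at 257 ± 113, Tmod3 at 111 ± 2.97, Tmod2 at 44.9 ± 13.8, Tpm2 at 32.6 ± 5.86, Tmod4 at 13.3 ± 5.18 and Tmod1 at 3.81 ± 0.384. Tpm4 and Tpm1 overlapped across the control libraries, as did Tpm1 and Tpm3, and Tmod2 and Tpm2. The other neighbours in this order did not overlap.

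In the degenerated libraries Tmod2 was the last of the 8 members, at 3.58 ± 2.62 TPM (SD, n = 3), and Tmod3, at 172 ± 12.6 TPM, was the main tropomodulin in the table. Tmod4 on this scale was 10.2, 10.3 and 19.3 TPM in the controls and 6.91, 7.31 and 2.55 TPM in the degenerated libraries, without the overlap seen in CPM, because the counts of its transcripts of different length are weighted differently. The 4 tropomodulins summed to 187, 158 and 172 TPM in the controls and 172, 205 and 193 TPM in the degenerated libraries, with overlap. The 4 tropomyosins summed to 743, 940 and 902 TPM and to 1129, 1024 and 1109 TPM, with every degenerated library above the controls. On the CPM scale both patterns differed. There long transcripts weigh more, and libraries are scaled with TMM factors, which TPM did not use. The tropomodulins summed to 503, 425 and 455 CPM against 303, 327 and 328 CPM, below all controls. The tropomyosins summed to 699, 1090 and 969.5 CPM against 1165, 961 and 1099 CPM, with overlap. Tpm4, with 1 listed transcript, shows the scaling without length: 297, 288 and 275 TPM in the controls against 506, 382 and 426 TPM. Its CPM were 323, 357 and 325 against 567, 396 and 462. The parts of length and library scaling in the tropomyosin sums were not separated. In CPM the degenerated libraries lay below all controls for Tmod2 alone of the tropomodulins. They lay above all controls for Tmod1 and Tmod3 and overlapped them for Tmod4. Control replicate 1, where Tpm3 was low, was the lowest in the tropomyosin sum on both scales.

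**Figure D5:**
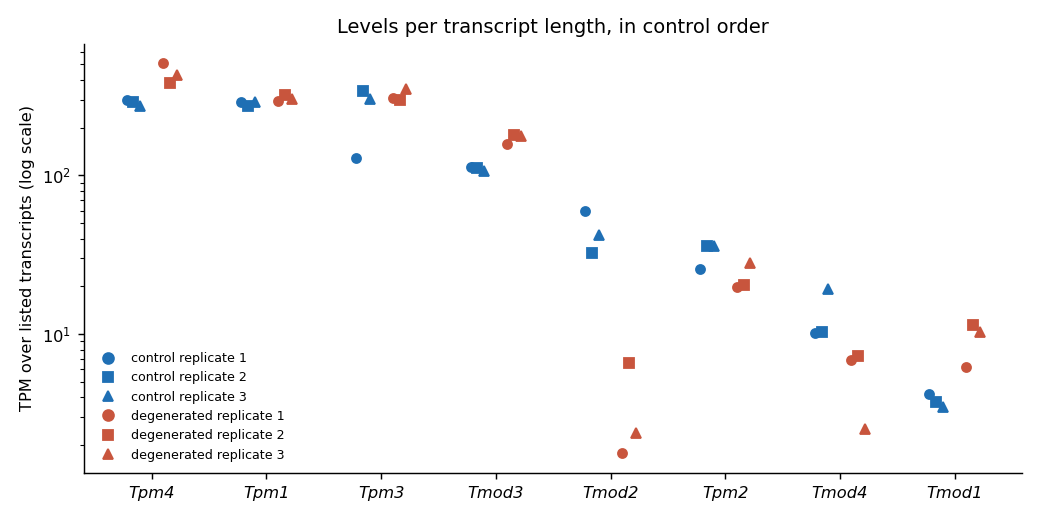
TPM over the listed transcripts of each member on a log axis, in the order of the control means, with blue for the controls, red for the degenerated libraries and 1 point a library. Tpm4, Tpm1 and Tpm3 lead at 257 to 287 TPM on average in the controls, and Tmod2 goes from the fifth place in the controls to the last in the degenerated libraries.

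Partners of these proteins were counted from lists written by hand. Over all genes tested, 2.01% were called higher and 0.715% lower, and nothing is read from the counts in the lists. Of the leiomodins only Lmod3, which nucleates filaments in skeletal muscle, was tested: it was called lower, at 2.05, 2.90 and 2.11 CPM in the controls and 0.684, 0.704 and 0.710 CPM in the degenerated libraries (log2 fold change -1.74, SE 0.35, edgeR unadjusted p = 0.00237, adjusted p = 0.278). Its call was lost, leaving 0 in the list, when control replicate 2, degenerated replicate 1 or degenerated replicate 2 was left out. It did not peak in control replicate 3, whereas Lmod2, too low to be tested, was seen in that library alone, at 1.47 CPM.

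Of the actins, Actb and Actg1 were tested and neither was called, with log2 fold changes of -0.51 (SE 0.25) and -0.31 (SE 0.37). Actb had 642, 1051 and 1080 CPM in the controls and 722, 515 and 708 CPM in the degenerated libraries, with overlap. The muscle actin Acta1 was seen mainly in control replicate 3, at 1.32, 0.212 and 54.7 CPM in the controls and 0.137 to 0.564 CPM in the degenerated libraries; Actc1 was too low to be tested and Actg2 was at 0 in every library.

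Troponins sit on tropomyosin in striated muscle. Of the 8 subunits 5 were tested, and 1, the slow muscle inhibitor Tnni1, was called higher, at 0.265, 0.425 and 0.128 CPM in the controls and 2.39, 2.11 and 0.947 CPM in the degenerated libraries (log2 fold change 2.71, SE 0.62, edgeR unadjusted p = 0.00456, adjusted p = 0.320). With control replicate 1 or 3, or degenerated replicate 1 or 2, left out, the number called was 0. The median of the tested subunits was 0.32 on the log2 scale. Tnnt2 was not called but lay above all controls in every degenerated library, with a log2 fold change of 1.47 (SE 0.63). Tnnc2 and Tnni2, of fast muscle, stood out in control replicate 3 at 26.3 and 24.95 CPM. Tnni3, Tnnt1, Tnnc1 and Tnnt3 were not called or were too low to be tested.

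The counts in the next 3 lists stand beside shares of 2.01% called higher and 0.715% called lower over all genes tested. In the spectrin and actin skeleton under the membrane, where Tmod1 is known to act, 1 of 15 tested genes was called higher and 0 lower. The list had 12 positive values and a median log2 fold change of 0.13. The called gene was the adaptor Epb41l1, at 2.92 ± 0.419 CPM (SD, n = 3) against 8.06 ± 1.16 CPM (SD, n = 3), a log2 fold change of 1.46 (SE 0.29). Its unadjusted p in edgeR was 0.00238 and its adjusted p 0.278, and 0 genes of the list were called after removing control replicate 2, control replicate 3 or degenerated replicate 3. Among the actin nucleation genes, 2 of 19 were called higher and 0 lower, with a median of 0.04: the formin Diaph1, at 9.62 ± 0.949 CPM (SD, n = 3) in the controls and 149, 22.8 and 205.5 CPM in the degenerated libraries, and the formin Fmnl2, with a log2 fold change of 0.77 (SE 0.19). Both calls were lost on leaving out control replicate 2, control replicate 3 or degenerated replicate 1, and 1 was lost on leaving out any other library. Myosin II and its regulators had 1 of 13 called higher and 0 lower, Myh14, a non-muscle heavy chain of the inner ear, at a log2 fold change of 0.47 (SE 0.12), with a list median of 0.30. That call was lost, leaving 0, in each fit without control replicate 2, control replicate 3 or any 1 degenerated library.

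Neither the severing, capping and monomer-binding proteins (17 tested, median -0.03) nor the Z-disc and thin filament anchors (10 tested, median 0.06) had a gene called in either direction. At the adjusted threshold 0 genes of these lists were called, as over the whole table. Calm3 and Pnck, the tested ones of 4 genes that the study's network of this degeneration placed in a module with Tmod4 and Tpm4, had log2 fold changes of -0.11 (SE 0.29) and 0.32 (SE 0.47) and were not called. The study's network for mice without Tlr2 and Tlr4 placed other genes beside Tmod4 and Tpm4, among them Pvalb and Myl1. Pvalb was called lower here, at 817, 722 and 812.5 CPM in the controls and 512, 509 and 323 CPM in the degenerated libraries (log2 fold change -0.81, SE 0.20, edgeR unadjusted p = 0.00633, adjusted p = 0.342), and Myl1 was too low to be tested. The study chose the first list on these samples.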

How the data were processed

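Total RNA of the cochlear modiolus was sequenced in 3 control and 3 degenerated samples. The authors deposited 1 table of raw counts per Ensembl transcript, with 65535 transcripts. The study's methods name Hisat2 for alignment and StringTie for expression, while the submitters' processing notes name Bowtie 0.12.2 and the builds mm8 and mm10. Which counter and annotation made the table is not given in the sources used. Transcript IDs were matched to GENCODE M21 (GRCm38): 65272 matched, and the 263 unmatched held 0.125% of the counts and were left out of gene sums. The table listed 46% of the annotated transcripts, so a gene sum covers only part of a gene, and reads of near identical transcripts may be assigned to one of them.

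Deposited counts were fitted in edgeR 4.0.16 (R 4.3.3; filterByExpr, TMM, robust quasi-likelihood fit) on the whole table, once for gene sums and once for transcripts. SE is the log2 fold change over the square root of F. A gene was called at an unadjusted p under 0.01 with a log2 fold change beyond 0.2, criteria that the study states for its comparison of knockout with wild type mice; for degeneration it states none. The members and lists were chosen with earlier results of these data known, so members carry no test. All members, their transcripts with at least 10 counts, called genes of each list of partner proteins (up to 4 a direction), the listed members of such lists of up to 7 genes, and the 3 genes nearest to Tmod2, Tmod4, Tpm2 and Tpm4 are named. Other genes, such as the markers and the troponins, were named after their values were seen. CPM used TMM factors, and TPM used the annotated lengths. Coding sequences were aligned globally.

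Nothing states that samples are separate animals, so p-values measure the spread between samples, which may be technical. Counts of 12480876 to 15549319 per library set the precision, and intervals and floors of 3 counts cover counting error only. DESeq2 1.42.0, limma-voom (limma 3.58.1), the edgeR exact test, other scaling and filters, a replicate block and leaving out each library were tried as alternatives. The fit was checked on simulated data.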

Additional observations from a re-analysis of the deposited data

How the results depend on the processing

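The numbers of genes called higher (284) and lower (101) moved to 479 and 306 with DESeq2, and those of transcripts (296 and 170) to 657 and 555. With the replicate block, which takes the replicate number as a term of the fit, they were 160 and 58 genes and 138 and 83 transcripts. Deviations of same-numbered libraries had correlations of 0.16, -0.09 and 0.07, and those of differently numbered libraries ranged from -0.28 to 0.24. At 3 libraries a group these values cannot decide whether the numbers pair the samples, and nothing in the labels says that they do. Leaving out 1 library gave 144 to 339 genes higher, 76 to 158 genes lower, 211 to 412 transcripts higher and 152 to 230 transcripts lower. Removing control replicate 2 left 185 genes higher, control replicate 3 left 171, degenerated replicate 2 left 144 and degenerated replicate 3 left 179, while removing control replicate 1 gave 158 genes lower. Apart from the smaller number of samples when a library was left out, the cause was not tested.

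Over the 15 alternatives the log2 fold change of each member kept its sign, except that of Tpm3, which was -0.23 without control replicate 1. Tmod2 met the criteria in 15 of 15 fits, counting the reported one, and Tmod3 in 14, the edgeR exact test being the exception, whereas the transcript Tmod3-201 met them in 12, and not with the replicate block (log2 fold change 0.47). Tmod1 and Tpm4 met them in 1 each, when degenerated replicate 1 (Tmod1) or degenerated replicate 2 (Tpm4) was left out. The range of log2 fold changes was 0.97 to 1.48 for Tmod1, 0.47 to 0.56 for Tmod3, -1.57 to -0.71 for Tmod4, -0.17 to -0.05 for Tpm1, -0.83 to -0.38 for Tpm2 and 0.35 to 0.61 for Tpm4. Tmod2 was -7.07 without degenerated replicate 2 and -12.85 with Tmod2-201 alone. With the length of the main transcript for the whole gene, Tpm1 in the controls was 178 TPM in place of 285. The calls of Lmod3, Tnni1, Epb41l1, Diaph1, Fmnl2 and Myh14 were each lost when at least 1 library was left out. For Tpm1 and Tpm2 the groups overlapped, with log2 fold changes of -0.09 (SE 0.09) and -0.59 (SE 0.30). Each met the criteria in 0 of 15 fits. At 3 libraries a group, these differences did not stand out from the spread of each gene between its own libraries.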
